A study of Mus musculus with 12 samples.

Results

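The genes described here encode the respiratory chain and the ATP synthase of the mitochondrial inner membrane, and the question was where ESRRB bound at them in mouse embryonic stem cells and whether that binding differed when Nanog was present. They are the 98 protein-coding RefSeq genes of mm10 whose symbols begin with Nduf, Uqcr or Atp5 or match Cox4i, Cox5, Cox6, Cox7 or Cox8, together with Sdha, Sdhb, Sdhc, Sdhd, Cycs and Cyc1. A ChIP region was counted as theirs when its nearest protein-coding gene was one of them and its centre lay inside that gene or within 20 kb of it. This gave 250 of 86201 regions, at 92 of the 98 genes, and 246 of the 250 had enough counts to be tested.

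ESRRB was measured by chromatin immunoprecipitation and sequencing, with 3 ESRRB libraries from each of a pair of embryonic stem cell lines. Per the labels, the first lacks Nanog and carries Esrrb (NanogKO:Esrrb, called without Nanog below) and the second is NanogKO:Esrrb:Nanog (called with Nanog). Both bear the same cell line name, N{delta}:cE:iN, and both titles hold NanogKO and Esrrb, so the knockout is common to the groups, and neither how Nanog was returned nor the number of clones is given. Cells of both grew untreated in serum with LIF, and formaldehyde fixation was used by itself or before a DSG step, without a statement of which sample had which. ESRRB counts hold no RNA, so they check neither the Nanog label nor the cell type.

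Oxidative phosphorylation passes electrons from NADH (complex I) and succinate (complex II) through complex III and cytochrome c to oxygen at complex IV, and the proton gradient built on the way drives the ATP synthase. Most subunits are nuclear genes, and the estrogen-related receptors, the family of ESRRB, are known regulators of such genes in heart, muscle and other energy-demanding tissues. ESRRB itself is best known in embryonic stem cells as a member of the pluripotency network. The receptors bind as monomers to an extended response element, TCAAGGTCA, of which AAGGTCA is the core.

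The short core was found in few of these promoters. Every site found lay inside an ESRRB region, but 77 of the 79 genes with a promoter sequence had such a region at the start. With or without the core, nearly all of these promoters were thus at a region, and the overlap does not link the core to binding. Promoter sequences, from 250 bases before to 50 bases after the annotated start, were taken from RefSeq (GRCm38.p6, the assembly of mm10) and matched 79 of the 98 genes. The full element TCAAGGTCA, searched on both strands, was in 2 of the 79 (2.53%), against 66 of 17491 promoters of all protein-coding genes (0.377%). TNAAGGTCA, which contains the former, was in 3 (3.80% against 1.19%), and AAGGTCA, which both contain, was in 8 (10.1% against 4.73%). The 8 sites are printed 5′ to 3′ on the strand that reads AAGGTCA, which is in capitals, because they are the letters the receptor family is known to bind.
Atp5g3: aagacgctcAAGGTCActttgtaac
Sdhd: agggctcAAGGTCActctacaac
Ndufb4: ctgagcctgAAGGTCAgactcgaga
Atp5e: ggcagcaggAAGGTCAggcctgagt
Atp5l: cccatttccAAGGTCAggctgcccc
Ndufb2: agcagcagtAAGGTCAgccaagagc
Atp5k: tccggcgcgAAGGTCAcggacaaaa
Ndufs5: tacttgagcAAGGTCAcactcgaga

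Atp5g3 and Sdhd hold the full element, and Ndufb4 holds it with G at the free base of TNAAGGTCA. The Atp5g3 site is at chr2:73911363-73911387 on the plus strand, centred 49 bases before an annotated start of this minus-strand gene. That start lies inside the annotated span of Atp5g3, which runs to 73912464. At Sdhd the site is at chr9:50603800-50603822, centred 39 bases after the start, and at Ndufb4 it is at chr16:37654408-37654432 on the minus strand, 52 bases before the start. The other 5 lay between 225 bases before the start (Ndufs5) and 27 bases after it (Atp5e).

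The 250 bases before that internal start of Atp5g3, which encodes a copy of the membrane ring subunit c, are shown because its ESRRB region was among the strongest of these genes and holds the element. They lie at chr2:73911327-73911576, the sequence is that of the minus strand, and the capitals mark the element in its reverse complement.
Atp5g3: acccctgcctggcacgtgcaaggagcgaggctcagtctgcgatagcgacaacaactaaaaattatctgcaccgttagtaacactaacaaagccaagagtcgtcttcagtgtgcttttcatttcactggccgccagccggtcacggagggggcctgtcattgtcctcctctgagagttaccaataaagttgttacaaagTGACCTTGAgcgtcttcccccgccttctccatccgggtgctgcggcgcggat
The same stretch of Atp5b, the catalytic beta subunit, at chr10:128083057-128083306 on the plus strand, is shown beside it as that of a region of like strength whose promoter holds none of the 6 motifs searched.
Atp5b: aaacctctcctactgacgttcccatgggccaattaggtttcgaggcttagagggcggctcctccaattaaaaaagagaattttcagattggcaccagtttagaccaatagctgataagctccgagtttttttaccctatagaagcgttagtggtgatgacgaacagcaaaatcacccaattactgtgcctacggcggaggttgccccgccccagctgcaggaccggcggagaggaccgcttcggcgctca

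Motifs of other factors known at nuclear genes for mitochondrial proteins were searched in the same promoters. The NRF1 motif GCGCATGCG was in 11 of the 79 (13.9%, against 2.61% of all promoters), the ETS core CCGGAAG in 19 (24.1% against 12.9%) and the YY1 motif AAGATGGCG in 8 (10.1% against 2.14%). Among genes with an ESRRB region at the start alone, which were 77 of the 79 and 7274 of all, the shares were 14.3% against 3.89% for NRF1, 24.7% against 18.6% for ETS and 10.4% against 3.19% for YY1. TCAAGGTCA was in 2.60% against 0.509% of them and AAGGTCA in 10.4% against 5.40%. A match is a run of letters and was not tested as a bound site.

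Nearly all genes of the pathway had ESRRB at their start. A region centred within 1 kb of an annotated start was present at 92 of the 98 genes (93.9%), against 9158 of 21896 protein-coding genes (41.8%). The start is that of the RefSeq promoter table, and for genes not in it either end of the gene was taken. Over the genes in the table alone it was 77 of 79 (97.5%) against 7274 of 17491 (41.6%). Within 500 bases the counts were 89 of 98 (90.8%) and 33.0% of all genes, and within 2 kb they were 92 of 98 and 48.5%. All protein-coding genes were not sorted by activity, as no RNA was measured here. Start regions were also common at the further assembly factors counted below, of which 47 are annotated. Of these, 37 had one within 1 kb that lay nearest to that gene, and by this stricter rule 89 of the 98 did. The difference was not tested. All 17 genes of the ATP synthase, all 9 of complex III, all 4 of complex II, all 8 complex I assembly factors and Cycs, the electron carrier cytochrome c, had such a region. So did 39 of 41 complex I subunit genes and 14 of 18 of complex IV. Complexes were assigned here by gene symbol alone. Every Nduf gene except the Ndufaf ones, Ndufa4 and Ndufa4l2 among them, is therefore counted with the complex I subunits. Among 8 isoforms known for restricted tissues, such as the muscle forms of complex IV subunits, 4 had one. The genes with no region at the start, and none in 20 kb, were Cox4i2, Cox6a2, Cox7b2 and Cox8c, which are restricted isoforms, and Ndufb4b and Ndufb4c. In 3 of the 92 genes, Ndufa4, Ndufaf8 and Sdhd, the start region lay nearer to a neighbour (Phf14, Tepsin and Timm8b) and is therefore not among the 250.

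The regions at starts were also strong and wide. There were 102 of them, at 89 genes, and 101 were tested. Their median level over the 6 libraries was 37.8 CPM (the count per region scaled to library size by TMM), against 7.50 CPM for all 10739 tested regions at gene starts, and their median width was 832 against 403 bases. Per kb of region the medians were 39.8 and 18.8 CPM. Above the 90th percentile of all regions stood 65 of the 101 by level and 57 of the 101 per kb. The authors deposited a peak list for each line, and 82.2% of these regions were in the list without Nanog, against 36.8% of all start regions. For 34 of the 102, the start of another gene lay within 1 kb, as for Atp5a1 with Haus1, Sdha with Ccdc127, Atp5j with Gabpa and Atp5c1 with Kin, so that the region cannot be given to either gene alone. The median level was 29.4 CPM in the tested ones of these 34 and 37.9 CPM in the 68 others.

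**Figure D1:**
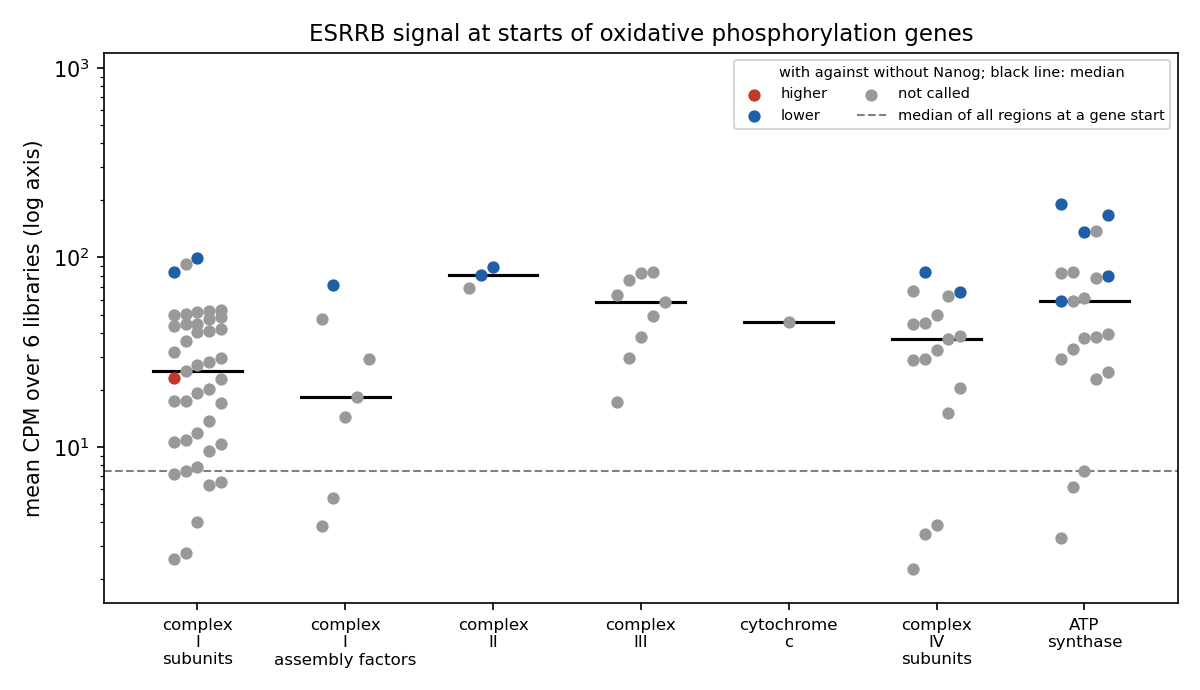
Mean level of each region at the start of an oxidative phosphorylation gene, in CPM over the 6 libraries on a log axis, by the complex it encodes; black lines are medians and colour gives the call with against without Nanog. Every group median lies above the dashed line at 7.50 CPM, the median of all regions at gene starts.

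By complex, the start regions of complex II (median 83.7 CPM per kb, 3 regions) and of the ATP synthase (56.6 CPM per kb, 21 regions) had the highest medians. Complex III (47.5 CPM per kb, 9 regions), complex IV (36.3 CPM per kb, 17 regions), complex I subunits (35.2 CPM per kb, 43 regions) and complex I assembly factors (26.1 CPM per kb, 7 tested regions) followed. The single start region of Cycs stood at 39.8 CPM per kb. These orders are of medians over regions and carry no test. The highest single regions by level were at Atp5a1 (rank 3 among all tested start regions), Atp5g3, Atp5b and Atp5c1, and per kb the highest was that of Sdha, the flavoprotein of complex II, at 122 CPM per kb. The strongest region of a gene was at its start in 78 of the 92 genes. Low start regions were found too. The tested ones below 4 CPM were those of Cox6b2, Ndufa8, Ndufs1, Atp5g2, Cox8b, Ndufaf3 and Cox7a2l, a list chosen after the values were seen, and Atp5g2 and Cox7a2l are genes with more regions than most, 9 each. Cox6b2, Atp5g2 and Ndufa8 also had a stronger region at the start, at 32.6, 32.9 and 7.46 CPM, so their low region is a further one. For Ndufs1, which is not in the promoter table, either end of the gene counted as the start.

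**Figure D2:**
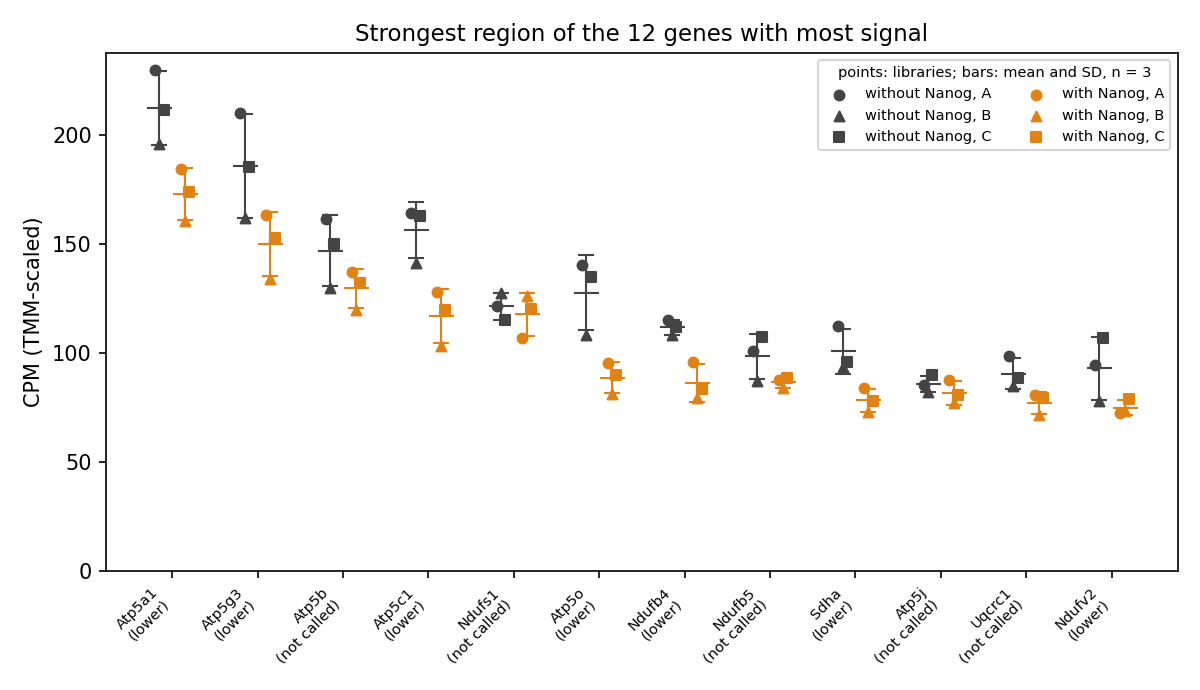
TMM-scaled CPM in each library for the strongest region of the highest member genes, without and with Nanog. Atp5a1 is the highest, with 195.8 to 229.7 CPM without and 160.4 to 184 CPM with Nanog.

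Comparing the lines, 14 of the 246 tested regions were higher with Nanog and 22 were lower (quasi-likelihood test of edgeR, p adjusted by Benjamini-Hochberg, threshold 0.05). Of all 84892 regions tested, 9.42% were higher and 9.78% lower, so neither count of members exceeds the share among regions at large. All 246 are in the authors' peak list with Nanog, as are 99.2% of all regions tested. Regions listed without Nanog alone are thus hardly covered by these counts. The median log2 fold change was -0.02 over members and -0.01 over all regions. The share of a library's counts in member regions was 0.601% to 0.645% without and 0.582% to 0.627% with Nanog, and the libraries of the lines overlap. At the gene level, 17 genes had lower calls alone, 8 had higher calls alone, 3 had both (Atp5a1, Atp5o and Ndufb4) and 64 had none. The same counts were not made over all genes, and a gene with more regions has more chances of a call. This split therefore has no baseline and is a description. In 33 of the 36 called regions the 3 libraries of one line all lay above the 3 of the other. The calls were made on these same libraries, so this describes the called regions and adds no support.

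Depth and line move together in these libraries. Counts in regions summed to 2734338 to 5193707 without and 6689166 to 8382646 with Nanog. The count table has no input column, so levels are not set against input. The counts come from bulk chromatin, in which fewer bound cells and less binding per cell cannot be told apart. With libraries thinned to the smallest total, a setting chosen after seeing the data, 8 members were higher and 16 lower.

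The split of calls depended on the scaling. With column totals in place of TMM it was 17 higher and 17 lower, and with a loess offset fitted on signal it was 19 higher and 11 lower. Removing the with-Nanog library B left 6 higher and 11 lower. Lower calls came to 13 without with-Nanog C, 13 without without-Nanog A and 14 without without-Nanog C, which also left 9 higher calls. None of the 32 called member regions that the naming rule took changed sign in any of the 15 other fits that gave it a value.

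At gene starts, calls were nearly all downward: 1 of 101 was higher (Ndufb8) and 12 were lower. Over all start regions tested, 3.11% were higher and 4.08% lower. The 12 lower regions all stood at or above the members' median level, where 12 of 51 were lower and 0 higher by edgeR. Among the 673 start regions of any gene at or above the members' median level, which include these 51, 25.0% were lower and 3.71% higher. The share of lower calls among strong members was thus near that of all start regions in this range. The median level was 58.7 CPM for the 51 and 52.5 CPM for the 673. In sign, 38 of those 51 members (74.5%) and 499 of the 673 (74.1%) were below 0. Precision also moved with level, the median standard error of the log2 fold change being 0.12 at or above that median and 0.18 below it. With the loess offset 2 start regions were higher and 3 lower, with column totals 1 and 9. Leaving out a library gave 10, 3 and 5 lower start calls without with-Nanog A, B and C, and 4, 16 and 7 without without-Nanog A, B and C.

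**Figure D3:**
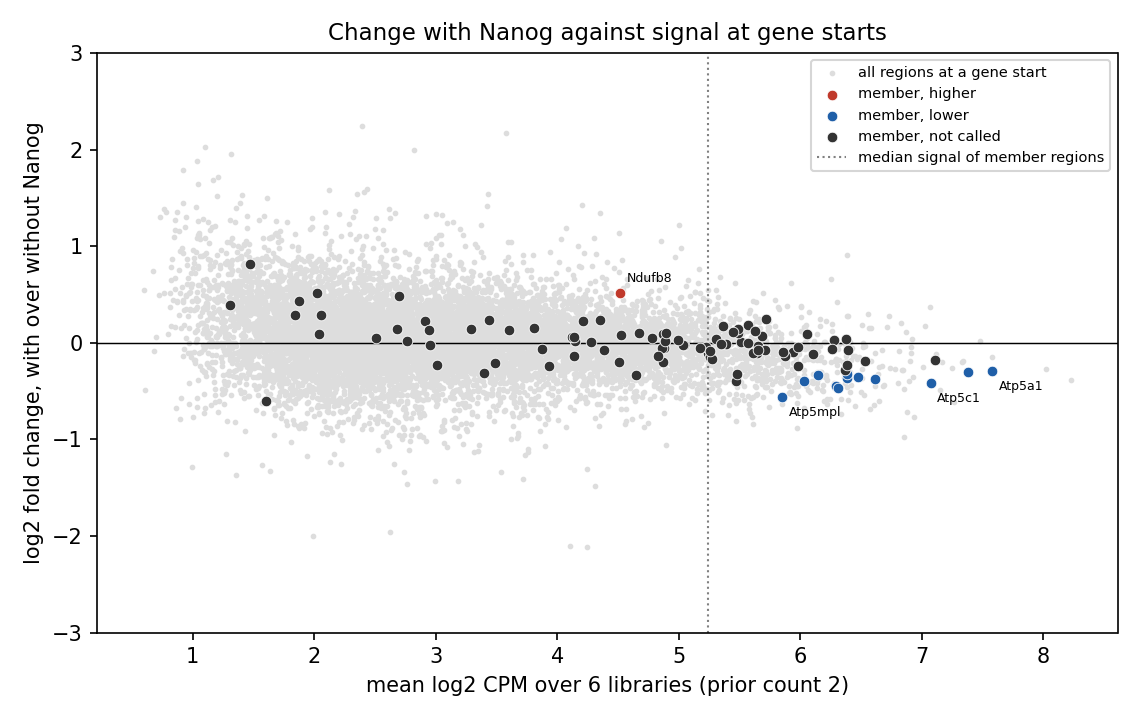
Log2 fold change with over without Nanog against mean log2 CPM (prior count 2) for all regions at gene starts (grey) and members at their own start (coloured by call). The 12 lower members lie to the right of the dotted line at the members' median level, within the downward lean of the grey points there.

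Of the 21 start regions of the ATP synthase 5 were lower, and the median level of the 21 was 58.7 CPM, in the range where 25.0% of the start regions of any gene were lower. Atp5a1, which encodes the alpha subunit of the catalytic head, gave 229.7, 196 and 211 CPM without and 184, 160.4 and 174 CPM with Nanog at its start. All libraries with Nanog were below those without, and the change was -0.30 ± 0.09 (log2, SE; adjusted p = 0.0212, edgeR). The region of Atp5g3 (chr2:73909994-73911762), which holds the element shown above, gave 209.9, 162 and 186 CPM without and 163, 134 and 153 CPM with Nanog. Its lines overlap by a small margin, and the region fell by 0.31 ± 0.10 on the log2 scale (adjusted p = 0.0305, edgeR). At Atp5c1, the gamma subunit of the central stalk (chr2:10079310-10080797), levels were 164, 141 and 163 CPM against 128, 103 and 119.5 CPM, with no overlap. That region fell by 0.42 ± 0.10 (log2, adjusted p = 0.00354, edgeR). All 3 calls were lost with the loess offset, where the changes were -0.06, -0.08 and -0.23, and those at Atp5a1 and Atp5g3 also with DESeq2, with thinned libraries and in 4 fits without a library.

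The other lower regions of the ATP synthase were at Atp5mpl and Atp5o. Atp5mpl encodes a small membrane subunit, and its start region (chr12:111966411-111967187) gave 72.0, 60.6 and 77.5 CPM without and 47.2, 46.7 and 48.3 CPM with Nanog. The groups are well apart, the log2 change was -0.57 ± 0.12 (adjusted p = 0.00106, edgeR), and the call held in every other fit. Atp5o encodes the stalk protein that confers sensitivity to oligomycin, and its strongest region lay 4.4 kb from the start, at chr16:91935229-91936894. It gave 140.2, 108 and 135 CPM without against 95.4, 81.0 and 89.8 CPM with Nanog, with no overlap between lines. The change there was -0.53 ± 0.11 (adjusted p = 0.000821, edgeR), and it held in every other fit. The start region of Atp5o moved from 91.6 ± 13.1 to 67.2 ± 8.24 CPM (SD, n = 3; log2 change -0.44 ± 0.12, adjusted p = 0.00817, edgeR), a call lost without with-Nanog B or without-Nanog A. A weak region 15.6 kb from the start went the other way, from 4.54 ± 1.02 to 8.36 ± 1.29 CPM (0.83 ± 0.26, adjusted p = 0.0232, edgeR). Its call was lost with DESeq2 and in 3 of the fits that leave out a library.

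Strong regions of the ATP synthase without a call were those of Atp5b and Atp5j. At Atp5b (chr10:128082185-128084626) levels were 161, 129.6 and 149.8 CPM without and 137, 119.9 and 132 CPM with Nanog, and the lines overlap (log2 change -0.18 ± 0.10, adjusted p = 0.222, edgeR). Atp5j, a subunit of the peripheral stalk, stood at 85.8 ± 3.83 and 81.7 ± 5.37 CPM (-0.07 ± 0.11, adjusted p = 0.681, edgeR). Within Atp5a1, 2.5 kb from the nearer end of the gene, a region listed as a peak with Nanog alone went from 8.43 ± 0.734 to 13.8 ± 1.09 CPM (0.71 ± 0.21, adjusted p = 0.0158, edgeR). This call was lost without with-Nanog B or without-Nanog C.

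Complex II, the succinate dehydrogenase, had 2 lower calls among its 3 start regions, which stood at 68.7 to 89.5 CPM, also in the range where 25.0% of all start regions were lower. Sdhb, the iron-sulfur subunit (chr4:140960892-140962100), gave 104, 84.7 and 91.6 CPM without and 74.4, 62.4 and 65.9 CPM with Nanog. All libraries with Nanog were lower, by 0.46 ± 0.11 on the log2 scale in the fit (adjusted p = 0.00359, edgeR), and this call held in every other fit. Sdha (chr13:74349678-74350410), whose region is shared with Ccdc127, gave 112.6, 93.4 and 96.1 CPM against 83.8, 73.0 and 78.0 CPM. It fell by 0.36 ± 0.11 (log2, adjusted p = 0.0176, edgeR), and the call was lost with the loess offset and without with-Nanog B, with-Nanog C or without-Nanog A.

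The membrane anchors of complex II differed from each other in call. At the start of Sdhc levels were 70.5, 63.4 and 79.6 CPM without and 70.9, 66.2 and 61.5 CPM with Nanog, with full overlap (-0.11 ± 0.12, adjusted p = 0.553, edgeR). At Sdhd, the region that covers the start and its element is nearest to Timm8b, an import protein gene, and so is not a member. It gave 57.4, 57.2 and 73.5 CPM without and 47.2, 44.7 and 49.2 CPM with Nanog, with no overlap (chr9:50603212-50604621; -0.43 ± 0.12, adjusted p = 0.0142, edgeR). The region 1.4 kb from the start that does belong to Sdhd stood at 41.2 ± 3.27 and 34.9 ± 4.22 CPM (-0.25 ± 0.14, adjusted p = 0.207, edgeR). Whether these changes differ from one another was not tested.

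In complex III and cytochrome c no region was called, of 11 and 2 tested, by edgeR. Of all regions, 9.42% were higher and 9.78% lower. The 9 start regions of complex III had a median of 58.0 CPM, in the range where 25.0% of the start regions of any gene were lower. With so few regions, the lack of calls is a description and was not tested. The strongest of complex III, at the start of the core subunit gene Uqcrc1 (chr9:108936045-108937581), gave 98.4, 84.7 and 88.4 CPM without and 80.8, 71.5 and 79.3 CPM with Nanog. The 3 libraries with Nanog were all lower, with an adjusted p of 0.141 (edgeR; log2 change -0.23 ± 0.11). Cyc1, the cytochrome of complex III, stood at 59.8 ± 9.22 and 56.2 ± 4.28 CPM (-0.10 ± 0.12, adjusted p = 0.632, edgeR). Cycs gave 39.5, 44.0 and 52.4 CPM without and 52.2, 44.6 and 41.4 CPM with Nanog, which overlap fully (0.01 ± 0.13, adjusted p = 0.982, edgeR).

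Complex IV had 1 higher and 4 lower calls of 42, beside 9.42% and 9.78% of all regions. The largest fall among all members was at a weak region 14.7 kb from the start of Cox7a2l, a factor of respiratory supercomplex assembly (chr17:83528924-83529166). It gave 10.4, 7.57 and 7.84 CPM without and 4.23, 3.18 and 2.55 CPM with Nanog, from counts of 20 to 40 per library. Its lines do not overlap, the log2 change was -1.36 ± 0.27 (adjusted p = 0.000613, edgeR) and the call held in every other fit. The start regions of Cox7b and Cox7c, small subunits of the enzyme, also fell. Cox7b (chrX:106015359-106016875) went from 94.6 ± 9.79 to 73.3 ± 6.31 CPM (-0.36 ± 0.11, adjusted p = 0.0197, edgeR) and Cox7c from 74.7 ± 9.01 to 57.1 ± 3.15 CPM (-0.39 ± 0.12, adjusted p = 0.0165, edgeR). Both calls were lost with the loess offset and in 3 or more of the fits without a library.

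The single rise of complex IV was inside Cox4i1, the common form of subunit IV, 2.2 kb from its nearer end (chr8:120671763-120672196). Levels were 7.46, 9.82 and 7.06 CPM without and 17.6, 17.9 and 15.8 CPM with Nanog, so the lines are far apart. This gives a log2 change of 1.08 ± 0.21 (adjusted p = 0.000384, edgeR), which held in every other fit. The fourth lower call was near the muscle isoform Cox8b, from 40.1 ± 5.40 to 30.1 ± 4.22 CPM (-0.42 ± 0.15, adjusted p = 0.0401, edgeR), and it was lost in 3 other fits and in 5 of those without a library.

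Complex I subunits, with 111 of the 246 tested regions, had 10 higher and 7 lower calls, beside 9.42% and 9.78% of all regions. At starts, 1 was higher and 2 were lower of 43, beside 3.11% and 4.08% of all start regions. Ndufb8, an accessory subunit of the membrane arm (chr19:44554718-44555578), gave 21.3, 16.3 and 19.4 CPM without and 27.8, 29.0 and 24.3 CPM with Nanog. All libraries with Nanog were higher, by 0.52 ± 0.16 (log2, adjusted p = 0.0233, edgeR), and the call was lost without with-Nanog A, with-Nanog B or without-Nanog B. Ndufb4, another membrane-arm subunit (chr16:37653631-37655168), whose promoter site is shown above, gave 115, 108 and 112 CPM without and 95.8, 79.4 and 83.6 CPM with Nanog. It fell by 0.37 ± 0.10 with no overlap (adjusted p = 0.0104, edgeR), while a region inside the gene, listed in both lines, went from 28.3 ± 1.93 to 36.8 ± 1.47 CPM (0.39 ± 0.14, adjusted p = 0.0484, edgeR). The fall was lost with the loess offset and without with-Nanog B or C, and the rise was lost in each fit that leaves out a library. Ndufv2, an iron-sulfur subunit of the NADH-binding module, moved from 93.1 ± 14.5 to 74.8 ± 3.52 CPM with overlapping lines (-0.32 ± 0.11, adjusted p = 0.0462, edgeR), and the call was lost in 10 other fits.

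Away from starts, 13 of 145 member regions were higher and 10 lower, beside 10.3% and 10.6% of all regions away from starts. Of the 13 rises, 9 were in regions the authors list as peaks with Nanog alone, and all 10 falls were in regions listed in both lines. All 145 are in the list with Nanog, so no fall could be in a region listed without Nanog alone. Only 56 of the 145 are in the list without Nanog at all, and a place in that list itself depends on the level without Nanog. These counts are therefore a description. Inside genes 6 were higher and 2 lower of 67, and outside genes 7 and 8 of 78. The median level away from starts was 7.11 CPM, close to the 6.66 CPM of all such regions.

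**Figure D4:**
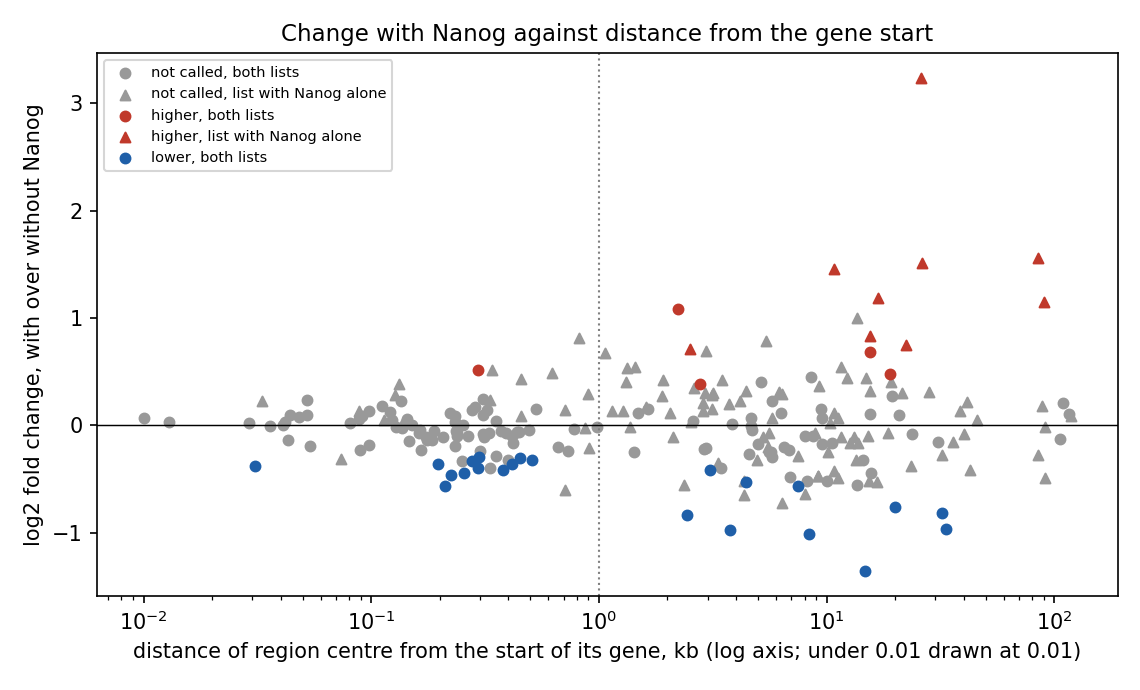
Log2 fold change with over without Nanog of each tested member region against the distance of its centre from the gene's own start, coloured by call. Away from the start 13 regions are higher and 10 are lower, and at the start 1 is higher and 12 are lower.

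The largest rise was 25.9 kb from the start of Ndufa8, a subunit gene of complex I, at chr2:36023358-36023590. Its counts were 1, 3 and 2 without and 23, 58 and 40 with Nanog, which is 0.535 ± 0.265 against 5.10 ± 1.74 CPM (SD, n = 3). The log2 change of 3.24 ± 0.47 (adjusted p = 1.27e-05, edgeR) rests on these few counts, and DESeq2 gave no adjusted p for it. Ndufv3 had a like pattern inside the gene, with counts of 4, 6 and 7 against 34, 41 and 21 (1.45 ± 0.37, adjusted p = 0.00553, edgeR). Ndufb5 had a pair of rises downstream of the gene, of 1.51 ± 0.31 (adjusted p = 0.000897, edgeR) and 0.75 ± 0.25 (adjusted p = 0.0338, edgeR). The first went from 5.22, 5.05 and 2.16 to 7.87, 15.7 and 9.30 CPM and held in every other fit, and the second was lost in 6. At its start, Ndufb5 stood at 98.6 ± 10.3 and 86.7 ± 2.52 CPM, with no call (-0.19 ± 0.11, adjusted p = 0.223, edgeR). Near Ndufab1, the mitochondrial acyl carrier protein, a region went from 2.94 ± 1.53 to 6.13 ± 1.08 CPM (1.19 ± 0.34, adjusted p = 0.0123, edgeR), a call lost with thinned libraries and without with-Nanog B or without-Nanog C.

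Ndufs4, an accessory subunit whose loss gives a Leigh-like disease in mice, had the most regions of any member, 14, and 3 of the rises. The strongest of the 3 in change lay inside the gene 84.5 kb from the start (chr13:114303462-114303813) and gave 4.10, 4.77 and 3.14 CPM without and 10.1, 13.3 and 11.1 CPM with Nanog. There the lines are far apart, with a log2 change of 1.56 ± 0.26 (adjusted p = 8.01e-05, edgeR) that held in every other fit. The second, 90.2 kb from the start, went from 2.77 ± 0.600 to 5.90 ± 1.27 CPM (1.15 ± 0.31, adjusted p = 0.00918, edgeR). The third, 18.9 kb upstream, went from 28.8 ± 4.07 to 40.2 ± 4.71 CPM (0.47 ± 0.14, adjusted p = 0.0193, edgeR). The second was lost in 2 of the fits without a library and the third in 4. At the start of Ndufs4 levels were 48.2 and 57.2 CPM (0.25 ± 0.12, adjusted p = 0.148, edgeR), and its strongest region, 109.5 kb from the start, stood at 58.7 and 68.3 CPM with no call (0.21 ± 0.11, adjusted p = 0.205, edgeR).

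**Figure D5:**
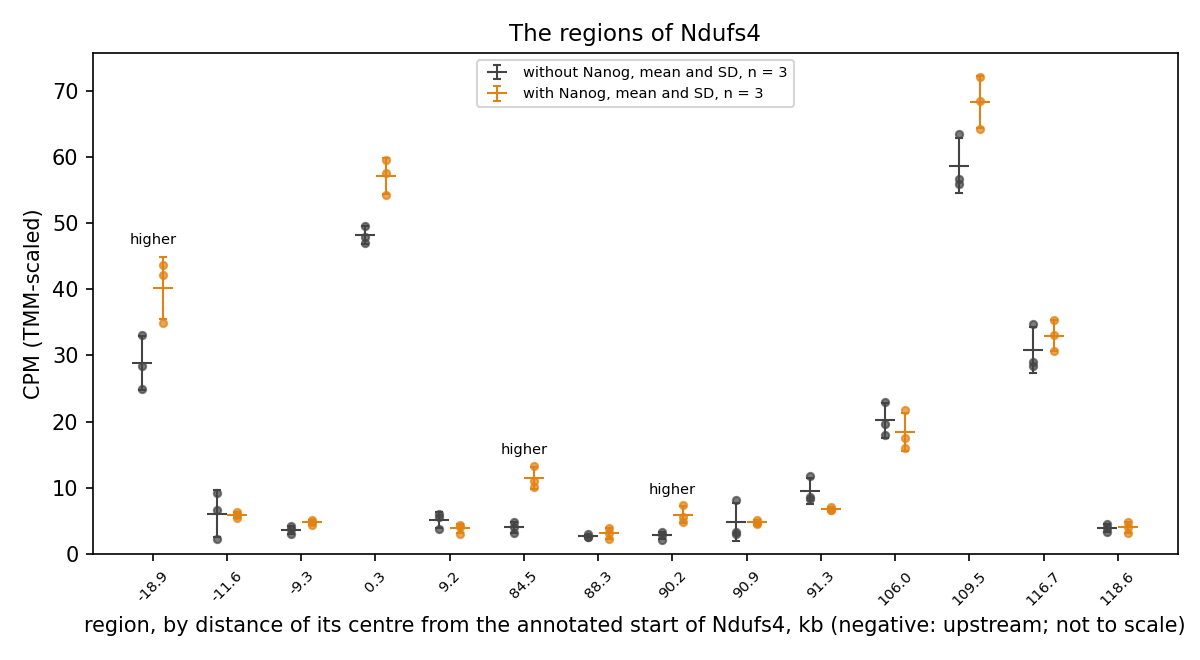
TMM-scaled CPM of the 14 regions of Ndufs4 in order along the gene, with each library as a point and the mean and SD of 3 libraries for each line. Of the 14, 3 are higher with Nanog and none passes the test downward by edgeR.

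Falls at distal regions of complex I subunit genes were seen near Ndufb1, Ndufa10, Ndufs5, Ndufb6 and Ndufs1. The region near Ndufb1 (chr12:101967198-101967509) gave 13.1, 12.3 and 10.8 CPM without and 5.54, 6.13 and 5.99 CPM with Nanog, with a log2 change of -1.01 ± 0.22 (adjusted p = 0.00158, edgeR). Inside Ndufa10, 32.0 kb from its start, levels were 13.8, 19.6 and 15.1 CPM against 8.17, 9.55 and 9.81 CPM (-0.82 ± 0.20, adjusted p = 0.00451, edgeR). Neither pair of groups overlaps, and both calls held in every other fit. The falls near Ndufs5 (-0.98 ± 0.28, adjusted p = 0.0143, edgeR, with overlapping lines), Ndufb6 (-0.76 ± 0.22, adjusted p = 0.0147, edgeR) and Ndufs1 (-0.56 ± 0.20, adjusted p = 0.0473, edgeR) were less stable. Leaving out a library ended the call near Ndufs5 in 3 fits, near Ndufb6 in 2 and near Ndufs1 in 5, and the last was also lost with DESeq2, column totals, the loess offset and thinned libraries. Ndufs1 encodes the largest iron-sulfur subunit of complex I, and its strongest region, 4.7 kb from the nearer end of the gene, had no call, at 121 ± 6.25 and 118 ± 9.78 CPM (-0.04 ± 0.10, adjusted p = 0.817, edgeR).

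Among complex I assembly factors, 1 region was higher and 3 were lower of 26, beside 9.42% and 9.78% of all regions. The falls were at Ndufaf5, which modifies a core subunit, and at Ndufaf8, which encodes its partner. The Ndufaf8 region (chr11:120100947-120101790), 2.4 kb from the start, gave 85.4, 61.7 and 82.2 CPM without and 46.1, 36.2 and 46.6 CPM with Nanog, with no overlap. This was the lowest adjusted p of any lower member (3.9e-05, edgeR; log2 change -0.83 ± 0.13), and the call held in every other fit. Inside Ndufaf5, 33.6 kb from the start, levels went from 15.5 ± 3.10 to 7.91 ± 0.324 CPM (-0.97 ± 0.21, adjusted p = 0.00137, edgeR), which also held. The start of Ndufaf5 went from 79.6 ± 3.58 to 63.2 ± 8.78 CPM (-0.33 ± 0.12, adjusted p = 0.0432, edgeR), a call lost in 9 other fits. A region 15.6 kb from the nearer end of Ndufaf6 was the rise, with 30.6, 25.8 and 23.5 CPM without and 38.5, 44.2 and 43.8 CPM with Nanog (0.68 ± 0.14, adjusted p = 0.000956, edgeR), and it held in every other fit.

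Related genes were counted by the same rule. Of 48 further assembly factors, of complex I and of the other complexes, 41 had regions, and 5 of 109 tested were higher and 11 lower, beside 9.42% and 9.78% of all regions. The 4 with the lowest adjusted p were near Cox10, a haem farnesyltransferase (31.2 ± 4.08 to 64.4 ± 6.47 CPM, log2 change 1.03 ± 0.13, adjusted p = 2.08e-06, edgeR), Nubpl (-1.28 ± 0.23, adjusted p = 0.000173, edgeR), Dmac1 (1.89 ± 0.34, adjusted p = 0.000201, edgeR) and Cox18 (-0.71 ± 0.13, adjusted p = 0.000213, edgeR). Of 24 regulators of mitochondrial genes, 23 had regions, and 16 of 142 tested were higher and 8 lower, beside the same 9.42% and 9.78%. Neither list was tested against regions at large. Most of the 16 rises of the regulators were at Esrrb and Nrf1, which have many regions, so that count does not describe the list as a whole. The lowest adjusted p there belonged to 3 regions of Esrrb itself, with changes of 1.00 ± 0.13, 1.75 ± 0.27 and 1.78 ± 0.30 (adjusted p from 2.63e-06 to 0.000102, edgeR), and to 1 of Tfb1m (adjusted p = 0.000194, edgeR). At starts, 2 of 43 regions of the assembly factors and 1 of 21 of the regulators were lower, with none higher in either by edgeR. Over all start regions tested, 3.11% were higher and 4.08% lower.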

How the data were processed

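Samples were grouped by their titles. The authors deposited a table of whole-number read counts for 86201 regions in the 6 ESRRB libraries, unnormalised, and a peak list for each line. Tools in the submitters' processing notes are Bowtie2, MACS2, deepTools, SAMtools 1.4.1, bedtools 2.26.0 and bcl2fastq 2.19.1, and the build is mm10. Their settings and the read counter are not stated in these sources. Columns carry letters A, B and C, so each was tied to a line but to no numbered sample. Input libraries were not used here. No libraries of a line were duplicates (chi-square per degree of freedom 1.33 to 2.53).

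Regions were kept by filterByExpr with the line as group (84892 kept, 1309 removed), scaled by TMM and tested over all regions in edgeR 4.0.16 (R 4.3.3; glmQLFit, then glmQLFTest), with the line alone in the design, Benjamini-Hochberg adjustment and a threshold of 0.05. The script was tested on simulated data. Standard errors are the absolute log2 fold change over the square root of F. The labels do not say that libraries came from separate cultures, so p-values rest on a spread between libraries that may be technical. Regions equally near to several genes (2 members) count for each. A start is that of the RefSeq promoter table where it gives the gene and otherwise either end of the gene. Coordinates are 1-based.

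Named regions are the 12 largest rises and the 12 largest falls, the strongest regions of the 12 highest genes and of the highest gene of each complex, those of Sdha, Sdhb, Sdhc, Sdhd, Cycs and Cyc1, and up to 4 of each related list. The calls at Cox7c and Cox8b, the third rise of Ndufs4, the rise inside Ndufb4 and the start regions nearer to Phf14, Tepsin and Timm8b were named after their values were seen. The promoters of Sdhd and Atp5c1, which the rule also takes, were not printed because each runs into a neighbouring gene. The members and lists were chosen with earlier results of these data known. Alternatives were DESeq2 1.42.0, limma-voom (limma 3.58.1), other scalings, filters and distances, a loess offset (span 0.3), a replicate block, thinned libraries and leaving out each library.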

Additional observations from a re-analysis of the deposited data

How the results depend on the processing

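Of 32 called regions named, 14 kept their call in every alternative that gave an adjusted p, 18 lost it in at least 1 and 0 changed sign. DESeq2 gave 9 higher regions (17 of the 246 members had no adjusted p by it), thinned libraries 8, regions within 5 kb 8, and the strongest region of each of 92 genes 1 higher and 14 lower. A loess offset gave 11 lower and a median log2 fold change of 0.0272. Fits without a library had from 6 to 16 higher calls and from 11 to 26 lower calls. The share of promoters with AAGGTCA in place of TCAAGGTCA was 10.1%. The labels do not say that letters pair the libraries. The correlations of deviations were 0.0827, 0.224 and 0.128 for A, B and C and -0.159 to 0.0448 for other pairs, so each library correlated best with its own letter, a hint from the data and not the design. With a replicate block by letter 17 members were higher and 30 lower, 17 of the latter at starts, and calls over all regions went from 7997 higher and 8306 lower to 10095 and 10825. Of 9 named regions with no call, 2 gained one in the same direction, Atp5b without without-Nanog B (-0.25) and Uqcrc1 with the replicate block (-0.23). There were 6 that changed sign in some fit, without a call in that fit. With the loess offset these were Ndufs1 (0.1371), Sdhc (0.0049), Atp5b (0.0196) and Atp5j (0.0624). Over the fits without a library Ndufs1 ranged from -0.0936 to 0.027, Cyc1 from -0.1967 to 0.0482 and Cycs from -0.0836 to 0.1457. Cycs was -0.0134 by limma-voom and -0.0054 with the replicate block. The causes were not tested. Depth limits weak regions, where the median standard error of the log2 fold change was 0.26 for members away from starts against 0.14 at starts.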

Other observations

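The count table also holds 4 regions on the mitochondrial genome, which encodes the remaining subunits of the respiratory chain and ATP synthase and was not assigned to genes here. Each was lower with Nanog, with log2 fold changes from -1.31 to -1.24 and adjusted p from 1.28e-07 to 6.71e-07 (edgeR). The spread within lines was wide. The first region (519 bases) gave 389, 300.4 and 207 CPM without Nanog (libraries A, B, C) and 149, 103 and 109.6 CPM with Nanog. In all 4 regions the order of the libraries from high to low was the reverse of their order by total count. This held within each line and across both. The largest total without Nanog was 5193707 and the smallest with Nanog was 6689166. A change with Nanog and a trend with the total therefore cannot be told apart in these regions. No input was used, so these values are not set against the number of mitochondrial genomes in the chromatin.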
